A study of Mus musculus with 8 samples.

Results

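The nuclear-encoded subunit genes of the mitochondrial respiratory chain and ATP synthase were followed in the cerebral cortex of mouse embryos without and with Taf8. They were chosen by gene name and not by measured values, as protein-coding genes whose symbols begin with Nduf, 1 of the letters a, b, c, s or v and then a digit (complex I), are Sdha to Sdhd (complex II), begin with Uqcr or are Cyc1 (complex III), begin with Cox4 to Cox8 (complex IV) or begin with Atp5 (complex V). The name pattern met 88 protein-coding genes in the reference table, of which 87 were analysed among the 27179 genes of the count matrix and 1, Ndufb1, is not analysed here. Complex I had 39 of the 87 genes, complex II 4, complex III 9, complex IV 18 and complex V 17.

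The respiratory chain sits in the inner mitochondrial membrane. Complex I takes electrons from NADH and complex II from succinate, ubiquinone carries them to complex III, cytochrome c carries them to complex IV, and complex IV passes them to oxygen. Complexes I, III and IV pump protons as electrons pass, and complex V, the ATP synthase, lets protons flow back and makes ATP. Most subunits are encoded in the nucleus and imported, while a small core is encoded by mitochondrial DNA, so that both genomes supply the same complexes. Neurons depend on this chain for most of their ATP. Taf8 is a component of TFIID, which binds core promoters and brings RNA polymerase II to them.

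Gene counts came from 4 Taf8-deleted embryos, labelled Taf8 -/lox (a null allele and a lox allele), and from 4 Taf8-intact embryos, labelled Taf8 +/+, with a library from each embryo. Neither the embryonic stage nor the recombinase is named in the sources used here, so the cells in which the lox allele was deleted are not known from the labels. The leading parts of the animal numbers were not shared between the genotypes, and whatever they mark cannot be told apart from the genotype. Within the intact group some animals shared a leading part, while the test treated all libraries as independent. Library totals were 39590959 to 44788200 counts. Taf8 itself had 30, 14, 29 and 14 counts in the deleted libraries, against 1491, 1383, 1222 and 1403 counts in the intact libraries (edgeR log2 fold change of -6.02 ± 0.15, adjusted p = 2.42e-10).

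Members of the chain moved in both directions, and mostly by little. Values are CPM (counts scaled to the library size) on library sizes scaled by the trimmed mean of M values (TMM), and differences are log2 fold changes, deleted minus intact, with standard errors (SE), from the quasi-likelihood test of edgeR, adjusted by Benjamini-Hochberg over all 16074 genes tested, at a threshold of 0.05. Of the 87 genes, 80 had enough counts to be tested: 20 rose, 31 fell and 29 did not pass the test. Thus 63.8% of the tested members were called, beside 63.5% of all genes tested. The members split into 25% higher and 38.8% lower, beside 30.6% higher and 32.9% lower over all genes. CPM values of the 2 genotypes did not overlap for 46 of the 80 members, or 57.5%, beside 57.7% of all genes. The shares called and not overlapping were close to those of all genes. The row of Ndufs5 is shared with a pseudogene, as described below, and with the counts of both loci summed 19 members rose and 32 fell (23.8% higher and 40% lower). With library totals in place of TMM factors the split was even, at 25 higher and 25 lower. That is 31.2% of the tested members each way, beside 36.7% higher and 27.5% lower over all genes in that setting.

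The sizes of the changes were read against those of all genes. The sets differ in level: 69 of the 80 members lie at 10 RPKM (CPM per kilobase) or more, while all genes include many weakly counted ones. Fold changes of weakly counted genes scatter more, and the members were not matched to genes of like level. The widths and shares below are therefore not compared like for like. The median log2 fold change over the tested members was -0.06 with an interquartile range of 0.35, while over all genes it was 0.00 with an interquartile range of 0.55. Without deleted replicate 1 the median over the members was -0.04. A change of at least 1.5-fold was called for 9 of the 80 members (8 with the Ndufs5 loci summed), beside 20.6% of all genes. A change of at least 2-fold was called for 2 of the 80, beside 8.39% of all genes. Those 2 were Ndufs5 and Atp5g2, both of which share much of their sequence with other transcripts and are described with that limit.

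**Figure D1:**
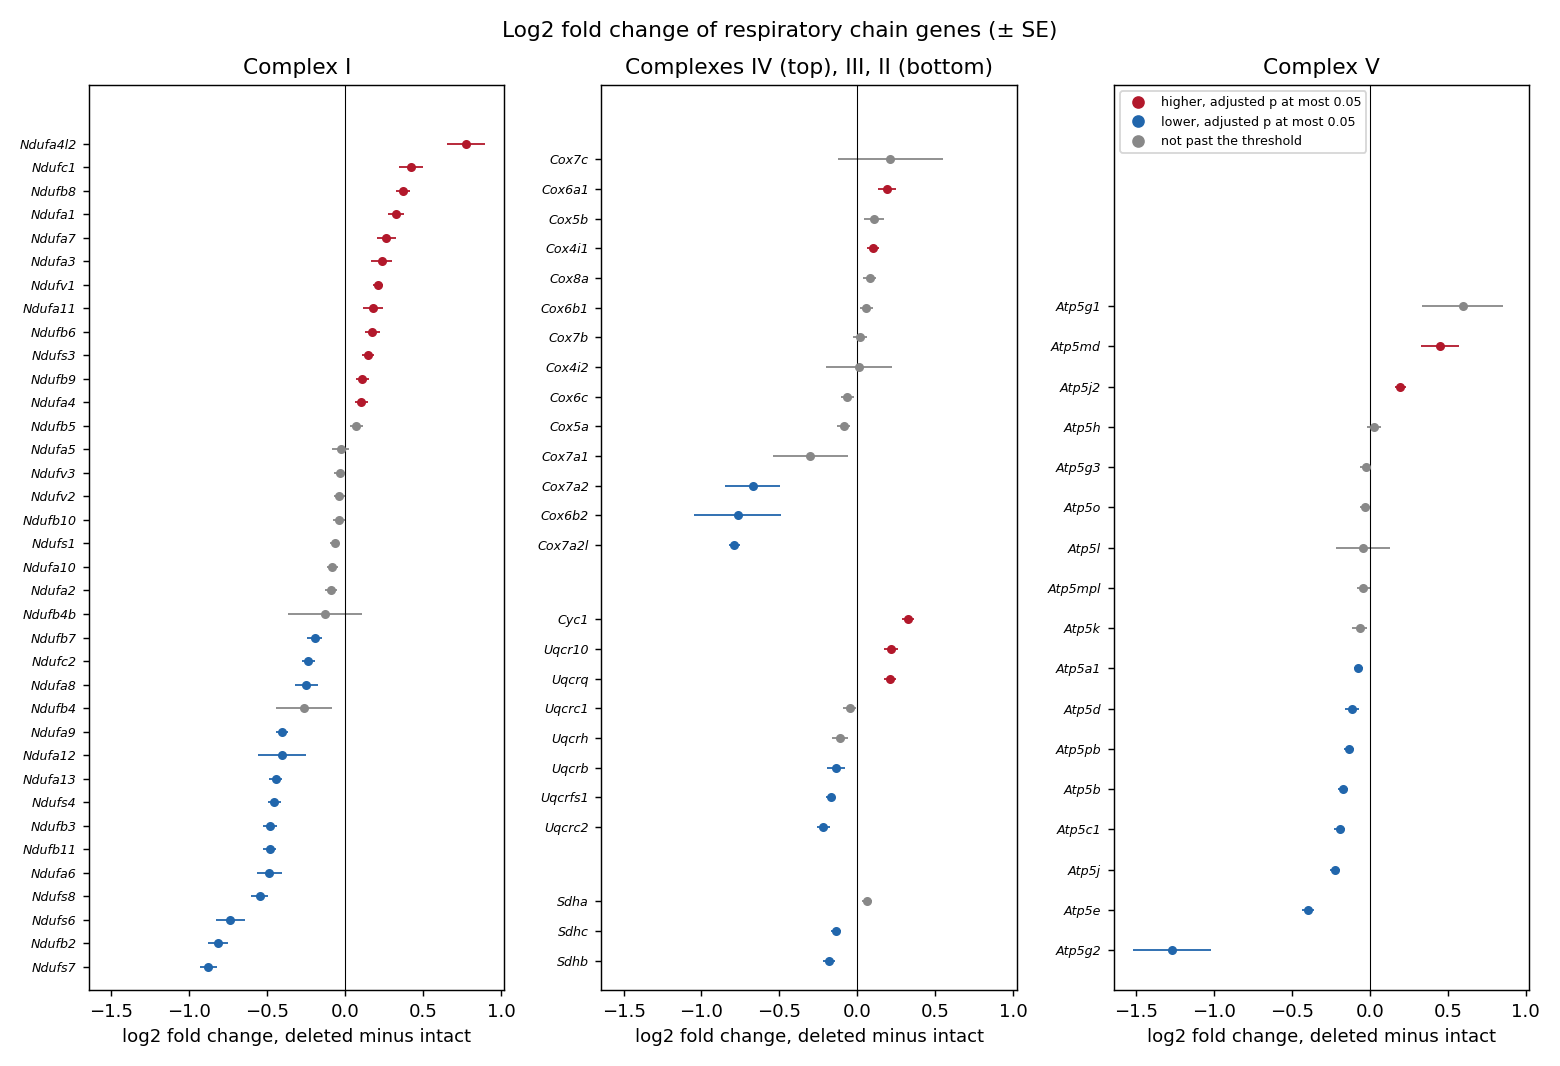
Log2 fold change (deleted minus intact, horizontal axis) with SE of tested respiratory chain genes, grouped by complex and ordered by value, where red marks genes called higher, blue genes called lower and grey genes that did not pass the test. Ndufs5, at 4.33, is left off the axis, and 1 gene is not shown. Complex I spans both directions, while 8 of the 17 complex V genes lie at called values below 0.

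Cell type markers moved beside these genes. The summed level of 8 cortical neuron markers was 5428 to 5899 CPM in deleted cortices, against 7409 to 8117 CPM in intact cortices, with 7 of the 8 called lower. Summed levels of 8 radial glia markers were 2937 to 3148 CPM in deleted and 2070.1 to 2365 CPM in intact cortices, with 5 called higher and 2 lower. All 5 interneuron markers were lower, summing to 433 to 454 CPM in deleted and 632 to 720.1 CPM in intact cortices. All 5 endothelial markers were higher, summing to 141 to 176 CPM in deleted and 119.7 to 128 CPM in intact cortices, and so were all 4 pericyte markers, at 89.9 to 107 CPM in deleted and 73.8 to 75.1 CPM in intact cortices. Choroid plexus markers summed to 852 CPM in replicate 1 of the deleted cortices and 13.7 to 143 CPM in the other 3, and to 273 CPM in replicate 4 of the intact cortices and 12.9 to 17.3 CPM in the other 3. Meningeal markers summed to 15.5 to 139.8 CPM in deleted and 12.7 to 34.3 CPM in intact cortices. Although these sums overlapped, 3 of the 5 meningeal markers were called higher, each by at least 2-fold. Erythroid markers (85.9 to 151 CPM in deleted and 84.2 to 101 CPM in intact cortices) and microglial markers (33.1 to 40.3 CPM in deleted and 34.0 to 37.5 CPM in intact cortices) overlapped, and muscle markers summed to at most 2.53 CPM in any library. Of 5 erythroid markers 2 were called higher, and of 5 microglial markers 1 was called higher and 1 lower. No choroid plexus or muscle marker was called. The part of cell composition in the respiratory chain values was not tested. In bulk tissue, fewer cells of a type and less RNA per cell cannot be told apart.

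TFIID acts at core promoters, so the promoters of the members were read from a RefSeq table of build GRCm38.p6, 250 bases before to 50 bases after each start. The table held 74 promoters for 69 of the 87 members. Those shown belong to the 2 lower and the 2 higher members with the smallest p that have an entry, leaving out Ndufs5. Capitals mark matches, on either strand, to GGGCGG (Sp1; CCGCCC on the other strand), AAGATGG (YY1), GCGCATG (part of an NRF1 site) or TATAAA, while the further motifs searched, CCGGAAG and CCAAT, have none in these promoters. No motif is contained in another. The lower genes were Cox7a2l, at chr17:83514284-83514583 (minus strand), and Ndufs7, at chr10:80249199-80249498 (plus strand). The higher genes were Ndufb8, at chr19:44555393-44555692 (minus strand), and Ndufa1, at chrX:37191189-37191488 (minus strand).
Cox7a2l: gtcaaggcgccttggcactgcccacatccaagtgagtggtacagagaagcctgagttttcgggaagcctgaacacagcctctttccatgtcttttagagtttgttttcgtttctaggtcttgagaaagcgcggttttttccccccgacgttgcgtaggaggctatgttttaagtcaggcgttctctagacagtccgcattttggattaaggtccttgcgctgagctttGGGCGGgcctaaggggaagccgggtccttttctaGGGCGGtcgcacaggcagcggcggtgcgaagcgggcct
Ndufs7: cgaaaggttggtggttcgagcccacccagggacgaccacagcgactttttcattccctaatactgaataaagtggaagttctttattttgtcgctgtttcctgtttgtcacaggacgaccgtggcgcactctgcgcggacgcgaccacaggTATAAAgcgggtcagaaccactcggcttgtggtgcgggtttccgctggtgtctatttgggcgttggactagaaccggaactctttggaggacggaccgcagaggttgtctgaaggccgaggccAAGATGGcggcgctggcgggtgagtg
Ndufb8: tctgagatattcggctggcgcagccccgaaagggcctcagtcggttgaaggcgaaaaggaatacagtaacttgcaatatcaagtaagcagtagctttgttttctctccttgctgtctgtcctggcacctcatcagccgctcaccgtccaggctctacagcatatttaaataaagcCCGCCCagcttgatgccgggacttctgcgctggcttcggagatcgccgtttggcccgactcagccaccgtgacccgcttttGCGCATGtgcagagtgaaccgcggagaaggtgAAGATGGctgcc
Ndufa1: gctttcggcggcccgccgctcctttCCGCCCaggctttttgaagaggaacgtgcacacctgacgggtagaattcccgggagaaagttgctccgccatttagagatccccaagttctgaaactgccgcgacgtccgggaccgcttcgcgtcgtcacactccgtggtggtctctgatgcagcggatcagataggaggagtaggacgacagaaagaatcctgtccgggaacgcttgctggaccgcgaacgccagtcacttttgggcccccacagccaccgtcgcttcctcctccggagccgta

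Motif content of the whole set was counted in the same way. CCGGAAG, bound by ETS factors such as GABPA, was present in 23.0% of the member promoters, beside 11.8% of the 20438 promoters of protein-coding genes and 8.86% of all 32851 promoters of the table. GCGCATG was present in 17.6% of member promoters, beside 4.94% of coding and 3.91% of all promoters, and AAGATGG in 14.9%, beside 6.31% of coding and 6.34% of all promoters. NRF1, GABPA and YY1 are known regulators of nuclear genes for mitochondrial proteins. GGGCGG was present in 39.2% of member promoters, which is below the 47.5% of coding promoters and above the 35.7% of all promoters. CCAAT (41.9%, beside 38.2% of coding and 37.4% of all promoters) and TATAAA (12.2%, beside 12.4% of coding and 13.6% of all promoters) had closer shares. Split by call, CCGGAAG was found in 4 of the 15 higher members with a promoter, 5 of the 26 lower ones and 6 of the 24 not called. For GCGCATG the counts were 4, 4 and 4, and for TATAAA 3, 2 and 1. AAGATGG was found in 4 higher members, 6 lower ones and 1 not called. GGGCGG was found in 7, 13 and 6 members of the same groups, and CCAAT in 4, 13 and 12. A match is only a stretch of letters, and these counts were not tested.

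Changes in complex I ran in both directions. Of its 38 tested genes, 13 rose and 15 fell, or 12 and 16 with the Ndufs5 loci summed, so that 73.7% were called in either case beside 63.5% of all genes. A change of at least 1.5-fold was called for 5 of its 38 tested genes, or 4 with the sum, beside 20.6% of all genes. The whole chain held 9 such members, or 8 with the sum. Its median difference was -0.08 on the log2 scale, with an interquartile range of 0.60, and -0.05 without deleted replicate 3 or without deleted replicate 4. The core subunits are those shared with the bacterial enzyme. Among those encoded in the nucleus, Ndufs7 and Ndufs8 fell, Ndufs3 and Ndufv1 rose, and Ndufs1 and Ndufv2 did not pass the test.

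Ndufs7 (chr10:80249105-80256794, promoter above) encodes the core subunit with the last iron-sulfur cluster before ubiquinone. It had 20.2, 23.3, 22.6 and 21.6 CPM in the Taf8-deleted libraries, against 40.9, 38.7, 38.5 and 43.1 CPM in the Taf8-intact libraries. Every deleted library lay below every intact one, and the level was 1.84-fold lower (edgeR log2 fold change of -0.88 ± 0.06, adjusted p = 6.86e-08). Ndufs8, a further iron-sulfur core subunit, had 22.6, 23.0, 25.01 and 22.5 CPM in deleted cortices, against 34.4, 31.8, 33.8 and 36.1 CPM in intact cortices, again without overlap (edgeR log2 fold change of -0.55 ± 0.05, adjusted p = 2.1e-06).

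Ndufv1 and Ndufs3 rose by less. Ndufv1 (chr19:4007499-4012755), the subunit that binds NADH and FMN, had 129, 132, 133 and 128 CPM in deleted cortices, against 112, 108, 115 and 116 CPM in intact cortices. Its deleted libraries all lay above the intact ones (edgeR log2 fold change of 0.21 ± 0.03, adjusted p = 0.000157). Ndufs3, a core subunit without a redox group, had 30.0, 30.4, 30.1 and 29.7 CPM in deleted cortices, against 27.6, 27.5, 26.3 and 27.4 CPM in intact cortices, a small difference without overlap (edgeR log2 fold change of 0.14 ± 0.04, adjusted p = 0.00593), and 28.2% of the 75-base stretches of its transcript also occur in other genes' transcripts. Ndufs1, which carries iron-sulfur clusters, averaged 90.6 ± 1.38 CPM in deleted and 95.0 ± 2.49 CPM in intact cortices and Ndufv2, the partner of Ndufv1, averaged 80.0 ± 3.05 CPM in deleted and 82.1 ± 2.01 CPM in intact cortices (SD, n = 4 each). Neither passed the test, with adjusted p = 0.0756 for Ndufs1 and 0.381 for Ndufv2 by edgeR.

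Among the accessory subunits, which surround the core, Ndufb2 and Ndufb11 had the smallest p of those that fell. Ndufb2 (chr6:39592565-39599843), in the membrane arm, had 15.3, 14.8, 15.9 and 15.5 CPM in deleted cortices, against 26.1, 26.3, 30.6 and 25.3 CPM in intact cortices. No deleted library reached the lowest intact one, and the level was 1.76-fold lower (edgeR log2 fold change of -0.82 ± 0.06, adjusted p = 3.57e-07). Ndufb11, also in the membrane arm and X-linked, averaged 40.4 ± 1.66 CPM in deleted and 56.5 ± 1.97 CPM in intact cortices (SD, n = 4 each; edgeR log2 fold change of -0.48 ± 0.04, adjusted p = 7.84e-07). Opposite-strand exons of Rbm10 cover 12.9% of the exon bases of Ndufb11, and 21.8% of the 75-base stretches of Ndufb2 occur in other transcripts.

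Accessory genes that rose included Ndufb8 and Ndufa1, whose promoters are printed above. Ndufb8 (chr19:44548571-44555442), in the membrane arm, had 71.0, 73.2, 76.4 and 69.2 CPM in deleted cortices, against 54.3, 53.0, 60.1 and 56.6 CPM in intact cortices. Ndufa1 (chrX:37187588-37191238), an X-linked subunit needed for assembly of complex I in mammals, had 31.9, 31.6, 32.4 and 30.3 CPM in deleted cortices, against 25.3, 23.3, 27.2 and 25.1 CPM in intact cortices. In both genes all deleted libraries lay above all intact ones, with a log2 fold change of 0.37 ± 0.05 (adjusted p = 1.72e-05) for Ndufb8 and 0.32 ± 0.05 (adjusted p = 0.000145) for Ndufa1 by edgeR. The remaining 10 complex I genes called lower ranged from -0.74 for Ndufs6 to -0.19 for Ndufb7 in log2 fold change. Apart from Ndufs5 and the genes named here or with the isoforms, the 6 others called higher ranged from 0.11 for Ndufb9 to 0.42 for Ndufc1.

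Ndufs5 had the largest fitted change of all members, and its row cannot be read alone. It encodes an accessory subunit on the outer side of the inner membrane. Its counts were 455, 231, 251 and 206 in the deleted libraries, against 19, 13, 13 and 9 in the intact libraries (edgeR log2 fold change of 4.33 ± 0.29, adjusted p = 3.71e-07). Its processed copy Ndufs5-ps (chr16:42955580-42956079) had 785, 1030, 1018 and 928 counts in the deleted libraries, against 1431, 1394, 1489 and 1446 in the intact ones, with the opposite direction (edgeR log2 fold change of -0.66 ± 0.09, adjusted p = 6.43e-05). The transcript annotated at the pseudogene aligns with the Ndufs5 transcript (chr4:123712710-123718186) over 319 bases, of which 317 are identical, with the longest identical run at 214 bases. The stretch of 60 bases from GENCODE transcripts that holds both differences is shown because it is the part of the alignment by which the loci can be told apart, with the differing bases in capitals.
Ndufs5: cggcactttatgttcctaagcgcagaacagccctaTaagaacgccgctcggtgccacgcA
Ndufs5-ps: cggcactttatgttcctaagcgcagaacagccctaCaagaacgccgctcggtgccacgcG

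Summed over both loci, the counts were 1240, 1261, 1269 and 1134 in the deleted libraries, against 1450, 1407, 1502 and 1455 in the intact libraries. All deleted sums lay below all intact sums, so the direction turned round, with a log2 fold change of -0.29 ± 0.04 and adjusted p = 9.24e-05 by edgeR. In deleted replicate 1 Ndufs5 was higher and Ndufs5-ps lower than in the other 3 deleted libraries, and its sum was 27.2 CPM, beside 28.3 to 28.7 CPM in the others. The cause of the different division between the loci was not tested. The direction of the Ndufs5 row therefore depends on whether the loci are taken apart or together, and counts that include it are given both ways.

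**Figure D2:**
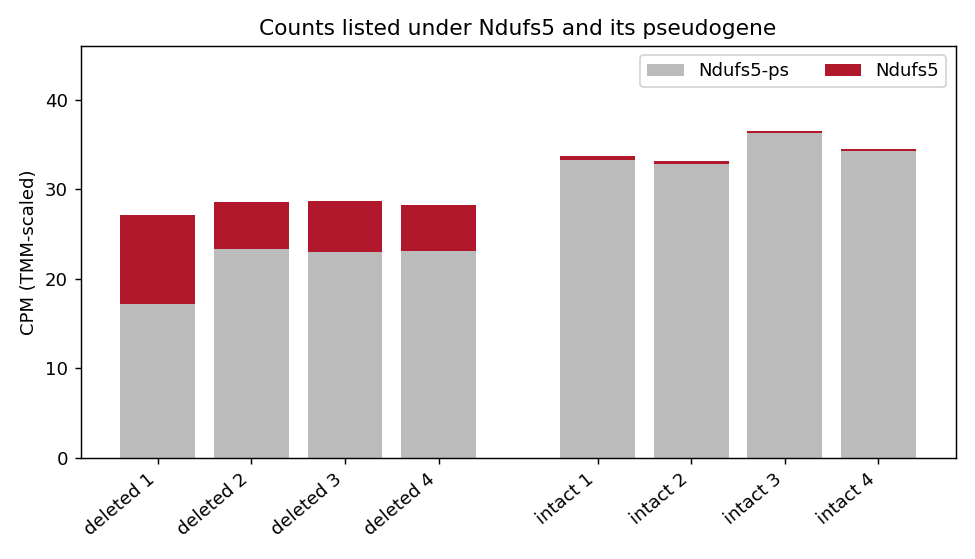
CPM (TMM-scaled, vertical axis) listed under Ndufs5 (red) and under its processed copy Ndufs5-ps (grey), stacked for each of the 4 deleted and 4 intact libraries. The Ndufs5 segment is large in deleted libraries and close to 0 in intact ones, while the full bars are lower in all 4 deleted libraries than in any intact one.

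Complex II, which oxidises succinate and also belongs to the citric acid cycle, has only nuclear-encoded subunits. Sdhb, the iron-sulfur subunit, had 96.6, 108, 106 and 107 CPM in deleted cortices, against 115, 118, 119 and 122 CPM in intact cortices. Sdhc, a membrane anchor, had 86.3, 87.6, 91.4 and 86.2 CPM in deleted cortices, against 96.2, 94.9, 95.7 and 100.2 CPM in intact cortices. Both fell without overlap, with a log2 fold change of -0.18 ± 0.04 (adjusted p = 0.00162) for Sdhb and -0.14 ± 0.03 (adjusted p = 0.00269) for Sdhc by edgeR. The Sdhc log2 fold change was -0.08 with library totals in place of TMM factors and -0.10 without the 2 libraries with the most choroid plexus markers, and neither passed the test. Sdha, the flavoprotein that binds succinate, averaged 246 ± 4.59 CPM in deleted and 236 ± 5.32 CPM in intact cortices (SD, n = 4 each) and did not pass the test (edgeR log2 fold change of 0.06 ± 0.03, adjusted p = 0.0961). Its deleted libraries nevertheless all lay above the intact ones, and Sdha was called higher in 5 of the 19 alternatives. The row of Sdhd, the other anchor, held few counts and was not tested.

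In complex III 3 genes rose and 3 fell of the 8 tested, or 37.5% each way. Over all genes 30.6% were called higher and 32.9% lower. Cyc1 (chr15:76343513-76346260), which encodes the cytochrome c1 that hands electrons to cytochrome c, had 171, 173, 180.1 and 165 CPM in deleted cortices, against 138, 133, 133 and 145 CPM in intact cortices. All deleted libraries were above all intact ones, at 1.25-fold (edgeR log2 fold change of 0.32 ± 0.04, adjusted p = 1.58e-05). Uqcrfs1, the Rieske iron-sulfur protein and the other redox subunit encoded in the nucleus, moved the opposite way. It had 87.2, 89.5, 88.0 and 88.0 CPM in deleted cortices, against 98.2, 96.7, 101 and 101 CPM in intact cortices (edgeR log2 fold change of -0.17 ± 0.03, adjusted p = 0.000305). Thus both nuclear-encoded redox subunits changed, in opposite directions.

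Of the other complex III subunits, Uqcrc2, a core protein without a redox group, averaged 159 ± 7.82 CPM in deleted and 185 ± 7.01 CPM in intact cortices (SD, n = 4 each; edgeR log2 fold change of -0.22 ± 0.04, adjusted p = 0.000601). Its exons overlap those of Pdzd9 on the opposite strand over 19.7% of their bases. The small subunits Uqcrq and Uqcr10 rose, at log2 fold changes of 0.21 ± 0.04 and 0.21 ± 0.05, with adjusted p = 0.000702 and 0.0014 by edgeR. Uqcrb, which takes part in ubiquinone binding, fell by 0.14 with adjusted p = 0.0488, and this call was lost in 16 of the 19 alternatives computed. Leaving out any 1 library other than intact replicate 1 ended it, with the Uqcrb log2 fold change between -0.15 and -0.09. About 29.1% of the 75-base stretches of Uqcrb occur in other transcripts. Uqcrc1 and Uqcrh did not pass the test.

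In complex IV 2 of 14 tested genes rose, 3 fell and 9 did not pass the test, that is 35.7% called beside the 63.5% of all genes. With library totals in place of TMM factors 5 rose and 3 fell (35.7% and 21.4%, beside 36.7% and 27.5% over all genes in that setting). The tested rows of Cox4i2, Cox6b2, Cox7a1, Cox7a2 and Cox7c averaged 2.01 CPM or less in either genotype, and few counts limit their calls. Cox6b2 and Cox7a2 are among the 3 that fell, so only Cox7a2l fell in a well-counted row. Cox7a2l (chr17:83501917-83514333, promoter above), also called Scaf1, joins complexes III and IV into supercomplexes in mice and had the smallest p of all members. It had 50.5, 54.4, 52.2 and 52.9 CPM in the Taf8-deleted libraries, against 89.7, 91.8, 86.4 and 95.0 CPM in the Taf8-intact libraries. The groups lay far apart, at 1.73-fold lower in the deleted cortices (edgeR log2 fold change of -0.79 ± 0.04, adjusted p = 8.06e-09). Of the 75-base stretches of its transcript, 13.4% occur in other transcripts.

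Isoform pairs make up much of complex IV. Cox4i1, the common form of the regulatory subunit 4, had 209.9, 210.1, 217 and 209.8 CPM in deleted cortices, against 189.7, 187, 209 and 205 CPM in intact cortices. Cox6a1, the common form of subunit 6a, had 119, 124, 133 and 115 CPM in deleted cortices, against 104, 99.3, 112 and 116 CPM in intact cortices. Both were called higher, with log2 fold changes of 0.10 ± 0.04 (adjusted p = 0.0468) and 0.19 ± 0.06 (adjusted p = 0.0133) by edgeR. The values of Cox6a1 overlapped between the genotypes, and the Cox4i1 call was lost in 6 of the 19 alternatives. Those included leaving out deleted replicate 2 or 3 or intact replicate 1 or 2, with the Cox4i1 log2 fold change between 0.08 and 0.11. The common forms Cox6b1, Cox7b and Cox8a did not pass the test, at log2 fold changes of 0.06 ± 0.04, 0.01 ± 0.05 and 0.08 ± 0.04.

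Rows of tissue-restricted forms of these subunits held few counts in both genotypes. Cox4i2, known from lung, averaged 0.698 ± 0.108 CPM in deleted and 0.693 ± 0.149 CPM in intact cortices, Cox7a1, known from muscle, 0.462 ± 0.119 CPM in deleted and 0.569 ± 0.0834 CPM in intact cortices, and Cox6b2, known from testis, 0.880 ± 0.309 CPM in deleted and 1.51 ± 0.475 CPM in intact cortices (SD, n = 4 each). Cox6b2 was called lower (edgeR log2 fold change of -0.77 ± 0.28, adjusted p = 0.0302), with overlapping groups. On leaving out deleted replicate 2, 3 or 4 or intact replicate 1 or 4 the Cox6b2 log2 fold change was between -0.75 and -0.59 and did not pass the test. Cox6a2, Cox7b2, Cox8b and Cox8c were not tested, with 0 to 8 counts in a library. Cox7a2, the common partner of Cox7a1, had only 0.925 ± 0.0574 CPM in deleted and 1.47 ± 0.301 CPM in intact cortices, and was called lower (edgeR log2 fold change of -0.67 ± 0.18, adjusted p = 0.00539).

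The remaining isoform pair is listed under complex I by name. Ndufa4, now regarded as a complex IV subunit, averaged 92.1 ± 2.37 CPM in deleted and 85.7 ± 4.88 CPM in intact cortices, and its paralog Ndufa4l2, known as a hypoxia-induced gene, averaged 3.74 ± 0.285 CPM in deleted and 2.18 ± 0.279 CPM in intact cortices (SD, n = 4 each). Ndufa4l2 had 3.37, 3.86, 4.04 and 3.69 CPM in deleted cortices, against 1.93, 1.96, 2.43 and 2.42 CPM in intact cortices, without overlap, and was 1.71-fold higher (edgeR log2 fold change of 0.78 ± 0.12, adjusted p = 0.000153). The Ndufa4 values overlapped, and its call (edgeR log2 fold change of 0.10 ± 0.04, adjusted p = 0.0458) was lost in 10 of the 19 alternatives. Leaving out any 1 library other than deleted replicate 1 or intact replicate 3 ended it, with the Ndufa4 log2 fold change between 0.08 and 0.11.

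Of the 17 complex V genes 8 fell, 2 rose and 7 were not called, that is 47.1% lower and 11.8% higher beside 32.9% lower and 30.6% higher over all genes. With library totals in place of TMM factors 5 fell and 2 rose, and the 29.4% lower was then close to the 27.5% lower over all genes. The 11.8% higher in that setting stood beside 36.7% higher over all genes. The 5 genes of the F1 head, which makes ATP, were all called lower. Atp5b, the catalytic beta subunit and the most abundant member per length, had 912, 940.3, 971 and 955 CPM in deleted cortices, against 1034, 1053, 1074 and 1097 CPM in intact cortices. Atp5c1, the gamma subunit of the rotating stalk, had 141, 146, 143 and 148 CPM in deleted cortices, against 160.4, 167, 165 and 170.4 CPM in intact cortices. Atp5e, the epsilon subunit, had 57.7, 61.2, 59.3 and 55.0 CPM in deleted cortices, against 76.4, 73.4, 80.0 and 77.2 CPM in intact cortices. In these 3 genes no deleted library reached the lowest intact library, and the log2 fold changes were -0.17 ± 0.03 for Atp5b, -0.19 ± 0.03 for Atp5c1 and -0.40 ± 0.04 for Atp5e, with adjusted p = 0.000457, 0.000233 and 3.56e-06 by edgeR.

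Differences in the other F1 genes were slight. Atp5a1, the alpha subunit, had 798, 826, 824 and 806 CPM in deleted cortices, against 849.7, 863, 839 and 870.0 CPM in intact cortices, and Atp5d, the delta subunit, averaged 53.0 ± 2.96 CPM in deleted and 57.4 ± 1.91 CPM in intact cortices (SD, n = 4 each). Both were called lower narrowly, with adjusted p = 0.0416 for Atp5a1 and 0.0401 for Atp5d by edgeR. The Atp5a1 call was lost in 16 and the Atp5d call in 14 of the 19 alternatives, and the number of F1 genes called lower ranged from 3 to 5 over them. Leaving out any 1 library ended the Atp5a1 call, with the Atp5a1 log2 fold change between -0.08 and -0.05. Leaving out any 1 other than deleted replicate 3 or intact replicate 1 ended the Atp5d call, with the Atp5d log2 fold change between -0.11 and -0.07.

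The peripheral stalk holds the F1 head still. Of its 4 genes, Atp5j (subunit F6) had 84.6, 85.4, 80.4 and 84.5 CPM in deleted cortices, against 101, 94.2, 98.7 and 96.6 CPM in intact cortices, a fall without overlap (edgeR log2 fold change of -0.22 ± 0.03, adjusted p = 0.000107), although opposite-strand exons of Gabpa cover 12.7% of its exon bases. Atp5pb (subunit b) averaged 135 ± 1.05 CPM in deleted and 148 ± 3.34 CPM in intact cortices (SD, n = 4 each; edgeR log2 fold change of -0.13 ± 0.03, adjusted p = 0.00204), a call lost when library totals replaced TMM factors. Atp5h and Atp5o did not pass the test, with log2 fold changes of 0.03 ± 0.05 and -0.03 ± 0.03. Of the 75-base stretches of Atp5pb, Atp5h and Atp5o, 27.9%, 40.3% and 32.5% occur in other transcripts. Exons of other annotated entries, including another named Atp5o, cover 47.9% of the exon bases of Atp5o. The 2 complex V genes that rose belong to the membrane part: Atp5j2 (subunit f), with 64.4, 66.6, 68.5 and 66.9 CPM in deleted cortices, against 58.3, 55.7, 60.2 and 58.1 CPM in intact cortices (edgeR log2 fold change of 0.20 ± 0.04, adjusted p = 0.000374), and Atp5md, with 3.43 ± 0.383 CPM in deleted and 2.50 ± 0.219 CPM in intact cortices (SD, n = 4 each; edgeR log2 fold change of 0.45 ± 0.12, adjusted p = 0.006), of whose 75-base stretches 36.0% occur in other transcripts.

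The same mature subunit c of the rotor ring is encoded by 3 genes. Atp5g3 supplied nearly all of the counts, with 178 ± 3.96 CPM in deleted and 182 ± 5.04 CPM in intact cortices (SD, n = 4 each), and did not pass the test (edgeR log2 fold change of -0.03 ± 0.03, adjusted p = 0.495). Atp5g1 had 6.40, 11.5, 11.5 and 10.8 CPM in deleted cortices, against 5.74, 5.04, 9.88 and 5.90 CPM in intact cortices, with overlap through deleted replicate 1 and intact replicate 3, and did not pass the test (edgeR log2 fold change of 0.60 ± 0.26, adjusted p = 0.078). The Atp5g1 log2 fold change was 0.78 without deleted replicate 1 and 0.86 without intact replicate 3, and both passed the test. Atp5g2 had only 0.372, 0.340, 0.497 and 0.474 CPM in deleted cortices, against 1.44, 0.825, 0.754 and 1.04 CPM in intact cortices and fell 2.41-fold (edgeR log2 fold change of -1.27 ± 0.25, adjusted p = 0.000769). About 50.4% of the 75-base stretches of Atp5g1 and 44.0% of those of Atp5g2 occur in other transcripts, so their rows are uncertain.

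Summed by complex, the levels differed by a few percent. Complex V summed to 2658, 2743, 2756 and 2718 CPM in deleted cortices, against 2896, 2927, 2953 and 3013 CPM in intact cortices, a mean difference of -7.75%. Atp5a1 and Atp5b, at 814 and 945 CPM in deleted cortices, made up much of this sum. Without these genes complex V summed to 949 to 976 CPM in deleted and 1011 to 1046 CPM in intact cortices, a mean difference of -6.50%. Complex I summed to 1575, 1634, 1642 and 1597 CPM in deleted cortices, against 1719, 1662, 1748 and 1751 CPM in intact cortices, a mean difference of -6.29%. Neither complex overlapped between the genotypes on this scale. With library totals in place of TMM factors the differences were -3.71% for complex V and -2.18% for complex I. Complex V sums then still did not overlap, while those of complex I did, at 1606 to 1684 CPM in deleted and 1624 to 1729 CPM in intact cortices. Complex I sums also overlapped with upper quartile factors and as RPKM.

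Sums of the other complexes overlapped between the genotypes on the TMM scale. They averaged 438 ± 10.7 CPM in deleted and 451 ± 7.78 CPM in intact cortices for complex II. Complex III averaged 757 ± 16.6 CPM in deleted and 759 ± 21.7 CPM in intact cortices, and complex IV 837 ± 18.8 CPM in deleted and 845 ± 29.9 CPM in intact cortices (SD, n = 4 each). Their mean differences of -2.75%, -0.34% and -0.84% became 1.504%, 4.03% and 3.50% with library totals, so no direction is given for them. As RPKM the complex II sums did not overlap, at 248 to 264 RPKM in deleted and 272 to 282 RPKM in intact cortices (-6.16%). Over all members the sum was 6363 ± 117 CPM in deleted and 6722 ± 135 CPM in intact cortices (SD, n = 4 each), or -5.33%, and -1.19% with library totals. Without Atp5a1 and Atp5b the TMM-scaled difference over all members was -4.10%, and the genotypes overlapped narrowly.

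**Figure D3:**
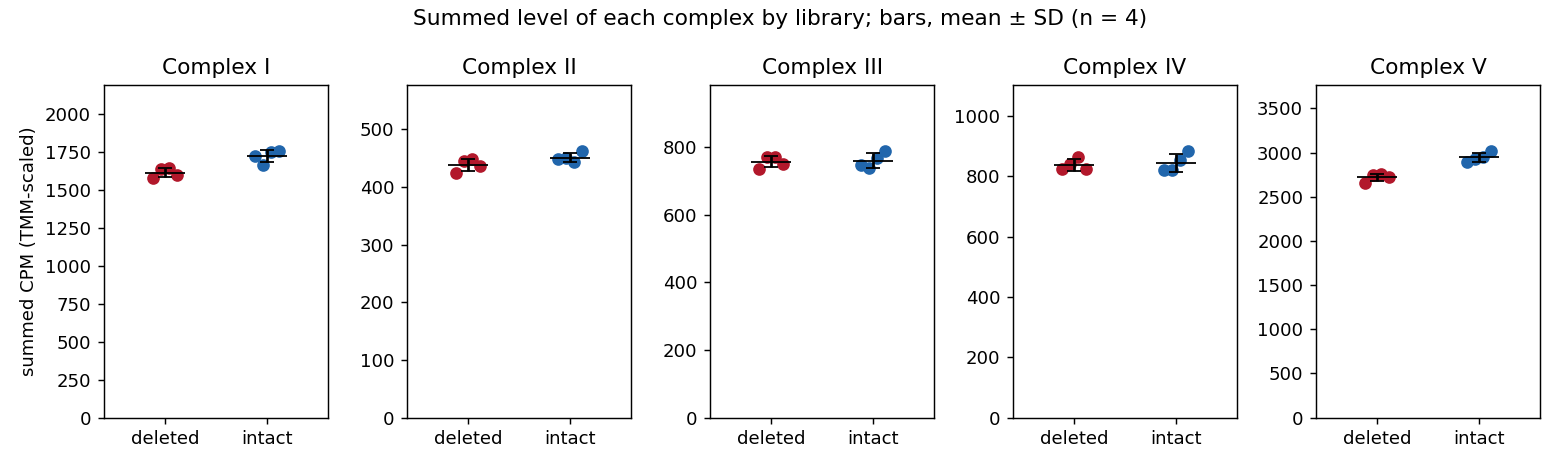
Summed CPM (TMM-scaled, vertical axis from 0) of the members of each complex in each library, deleted (red) left of intact (blue), with mean and SD. On this scale complexes I and V do not overlap between the genotypes, at 1575 to 1642 against 1662 to 1751 CPM and 2658 to 2756 against 2896 to 3013 CPM, while the other complexes overlap. With library totals complex I overlaps as well.

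Levels of different members were compared per length, as RPKM, which is CPM per kilobase, on the deposited gene lengths. The order at the top was led by Atp5b with 503 RPKM in deleted and 567 RPKM in intact cortices, followed by Atp5a1 with 335 RPKM in deleted and 352 RPKM in intact cortices, Cox4i1 with 312 RPKM in deleted and 291 RPKM in intact cortices and Atp5g3 with 263 RPKM in deleted and 268 RPKM in intact cortices. Then came Cox6a1 with 230.4 RPKM in deleted and 202 RPKM in intact cortices, Cox6b1 with 222 RPKM in deleted and 214 RPKM in intact cortices and Cox8a with 204 RPKM in deleted and 193 RPKM in intact cortices, with Cox6b1 above Cox6a1 in intact cortices. Among the 69 members at 10 RPKM or more in at least 1 genotype, 19 rose and 27 fell (18 and 28 with the Ndufs5 loci summed), so 66.7% were called, beside 63.5% of all genes. Ndufs5, Atp5md and Atp5g1 reached 10 RPKM only in deleted cortices (12.8, 10.05 and 11.6 RPKM, against 0.628, 7.34 and 7.65 RPKM in intact cortices). Ndufs5 and Atp5md are among those that rose, so these counts follow in part from the limit itself.

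At the other end stood genes of subunits that every cell is known to need. Sdhd had 0.169 RPKM in deleted and 0.0875 RPKM in intact cortices, Uqcr11 0.0515 RPKM in deleted and 0.0542 RPKM in intact cortices, Cox7a2 1.23 RPKM in deleted and 1.95 RPKM in intact cortices, Atp5l 1.66 RPKM in deleted and 1.71 RPKM in intact cortices, Ndufb4 1.498 RPKM in deleted and 1.803 RPKM in intact cortices and Cox7c 4.48 RPKM in deleted and 3.86 RPKM in intact cortices, all named after their values were seen. Of the 75-base stretches of Atp5l 76.0% occur in other transcripts, as do 44.6% of those of Cox7c and 35.2% of those of Ndufb4. For Sdhd and Cox7a2 the share was 0%. How multi-mapping reads were counted is not stated in the sources used here, and such rows were not read as low expression.

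**Figure D4:**
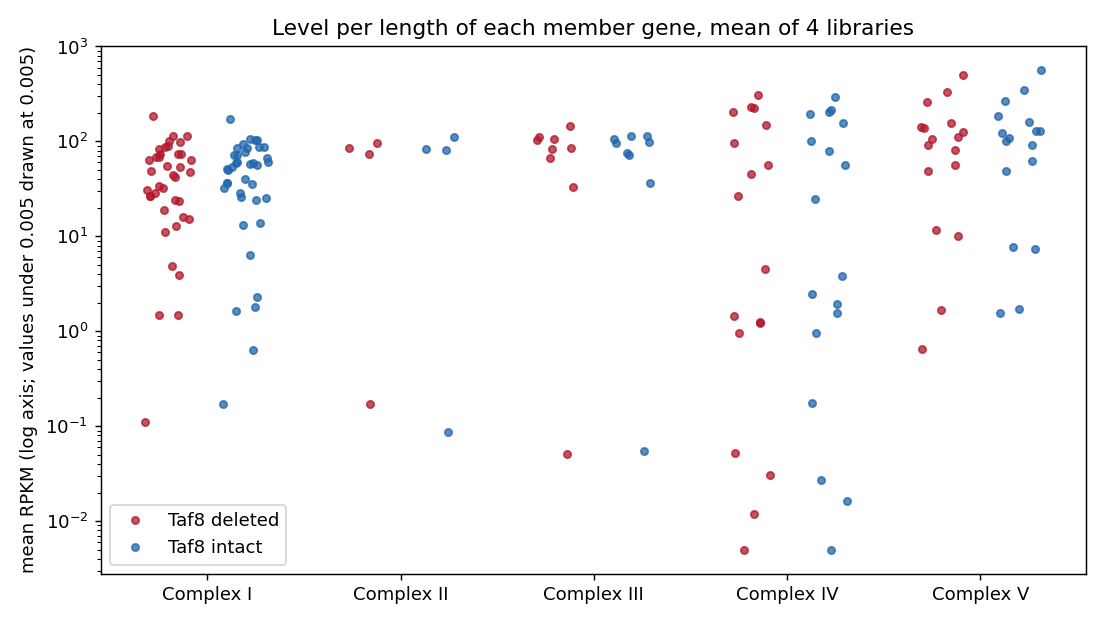
Mean RPKM of each of the 87 genes (vertical log axis) by complex, with Taf8-deleted (red) left of Taf8-intact (blue), each point being the mean of 4 libraries. A total of 69 genes lie at 10 RPKM or more in at least 1 genotype, and every complex has at least 1 row under 2 RPKM.

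Other genes of the pathway were read from lists of their own, beside the 30.6% of all genes called higher and the 32.9% called lower. Of 13 subunit mRNAs encoded by mitochondrial DNA, 10 rose (76.9%) and 0 fell (their median difference was 0.45 on the log2 scale), for example ND5 of complex I (1846 ± 100.4 CPM in deleted and 1185 ± 24.9 CPM in intact cortices, edgeR log2 fold change of 0.64 ± 0.04, adjusted p = 5.3e-08) and CYTB of complex III (3348 ± 142 CPM in deleted and 2209.7 ± 72.8 CPM in intact cortices, edgeR log2 fold change of 0.60 ± 0.04, adjusted p = 6.14e-08; SD, n = 4 each). The rows of ND3, ND4L, COX2, COX3, ATP6 and ATP8 held under 10 CPM, far below COX1 at 4552 ± 144 CPM in deleted and 3661 ± 155 CPM in intact cortices (SD, n = 4 each). Of these low rows COX2, ATP6 and ATP8 are among the 10 that rose, with adjusted p = 0.0350, 0.0426 and 0.0404 by edgeR. Over the 19 alternatives 7 to 11 of the 13 rose and 0 fell.

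Assembly factors build the complexes without staying in them. Of the 15 for complex I, 8 rose (53.3%) and 2 fell (13.3%). Nubpl, which delivers iron-sulfur clusters, averaged 7.42 ± 0.415 CPM in deleted and 4.23 ± 0.279 CPM in intact cortices (SD, n = 4 each; edgeR log2 fold change of 0.81 ± 0.08, adjusted p = 4.41e-06), and Foxred1 averaged 47.0 ± 1.88 CPM in deleted and 29.2 ± 2.52 CPM in intact cortices (SD, n = 4 each; edgeR log2 fold change of 0.69 ± 0.06, adjusted p = 8.18e-07). Ecsit and Ndufaf4 fell by 0.18 and 0.14 on the log2 scale, and the Ndufaf4 call was lost in 6 of the 19 alternatives. Leaving out deleted replicate 1 or 3 or intact replicate 3 ended it, with the Ndufaf4 log2 fold change between -0.13 and -0.10. Of 30 tested factors for complexes II to V, 11 rose (36.7%) and 9 fell (30%), close to the shares over all genes. Here Uqcc2 and Uqcc3, which act together on cytochrome b of complex III, went opposite ways: Uqcc2 had 11.5, 12.8, 12.2 and 12.9 CPM in deleted cortices, against 24.9, 23.5, 27.0 and 25.3 CPM in intact cortices (edgeR log2 fold change of -1.03 ± 0.06, adjusted p = 3.34e-08), while Uqcc3 had 20.7, 21.1, 20.9 and 19.0 CPM in deleted cortices, against 11.7, 10.4, 11.7 and 11.6 CPM in intact cortices (edgeR log2 fold change of 0.85 ± 0.06, adjusted p = 1.85e-07). Sdhaf1, for complex II, rose by 0.65 ± 0.05, and Coa7, for complex IV, had a log2 fold change of -0.99 ± 0.05.

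Ubiquinone synthesis and cytochrome c formed a list of 14 genes, of which 9 rose (64.3%) and 3 fell (21.4%). Coq3, a methyltransferase of ubiquinone synthesis, had 24.9, 25.9, 25.3 and 23.8 CPM in deleted cortices, against 10.7, 11.1, 11.8 and 12.2 CPM in intact cortices, without overlap and 2.18-fold higher (edgeR log2 fold change of 1.13 ± 0.06, adjusted p = 1.19e-08). Coq7, the hydroxylase of the same route, had 9.18, 9.51, 10.3 and 9.50 CPM in deleted cortices, against 20.7, 19.1, 17.7 and 19.99 CPM in intact cortices, without overlap and 2.01-fold lower (edgeR log2 fold change of -1.01 ± 0.07, adjusted p = 8.22e-08). Coq2 had a log2 fold change of 0.73 ± 0.05 and Coq9, the partner of Coq7, of -0.65 ± 0.05. In the citric acid cycle and pyruvate dehydrogenase list, 8 of 18 rose (44.4%) and 7 fell (38.9%), with Ogdh at -0.65 ± 0.04, Pdha1 at -0.61 ± 0.04, Suclg2 at 0.71 ± 0.09 and Sucla2 at 0.27 ± 0.03.

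Factors of mitochondrial biogenesis and mitochondrial DNA expression rose in 11 (55%) and fell in 2 (10%) of 20 cases. Tfam, which packages mitochondrial DNA and starts its transcription, averaged 73.9 ± 3.08 CPM in deleted and 61.4 ± 2.23 CPM in intact cortices, and Twnk, the mitochondrial DNA helicase, averaged 64.4 ± 1.28 CPM in deleted and 49.8 ± 1.98 CPM in intact cortices (SD, n = 4 each), at log2 fold changes of 0.27 ± 0.04 and 0.37 ± 0.04. Gabpa, the ETS factor whose motif was counted above, had a log2 fold change of -0.14 ± 0.03, and Slirp, which stabilises mitochondrial mRNAs, of -0.32 ± 0.07. Apart from the low rows of mitochondrially encoded subunits, all of the named differences in these lists passed edgeR's test, with adjusted p between 8.7e-09 and 0.0163. Medians were 0.19 for complex I assembly, 0.12 for the other assembly factors, 0.19 for the carriers, 0.04 for the citric acid cycle list and 0.14 for biogenesis, beside -0.06 for the nuclear-encoded subunits. The differences between these lists were not tested.

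**Figure D5:**
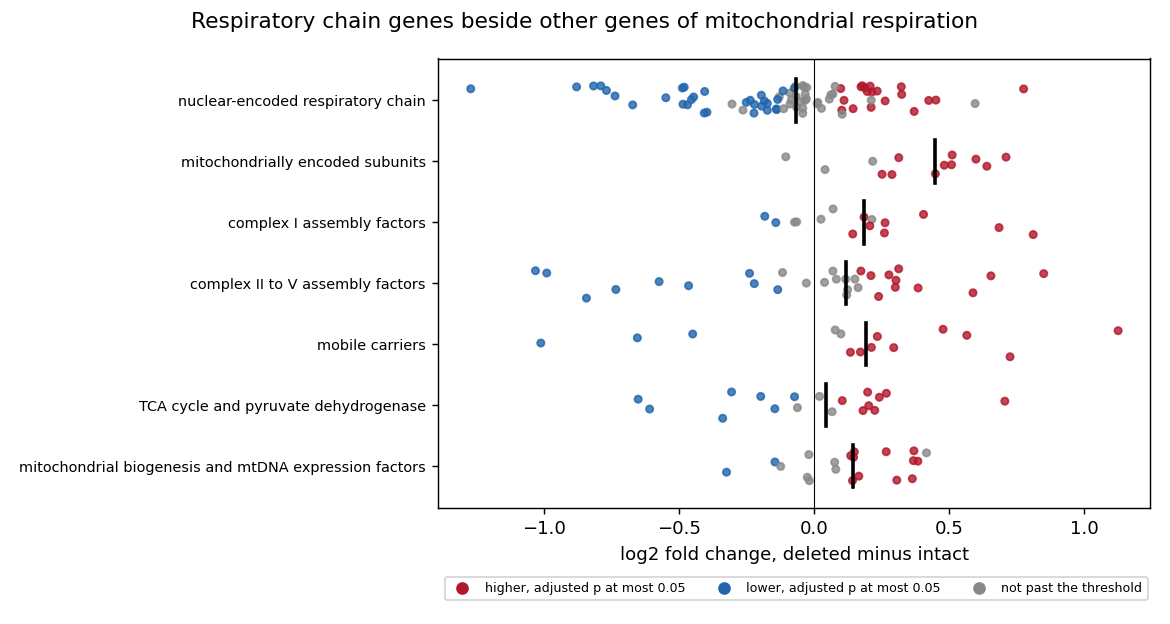
Log2 fold change (deleted minus intact, horizontal axis) of each tested gene in the nuclear-encoded respiratory chain and in 6 other lists, coloured by call, with black bars at the medians. Ndufs5 is left off the axis but counted in its median. The mitochondrially encoded subunits lie highest, at a median of 0.45, and the nuclear-encoded subunits lie around -0.06.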

How the data were processed

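Embryonic mouse cortex RNA, 4 Taf8-deleted and 4 Taf8-intact samples, was read as paired ends from polyadenylated, unstranded libraries, per the labels' protocols. The deposited values are raw counts per gene, not normalised, with gene lengths beside them. The submitters' processing notes name bcl2fastq 1.8.4, Subread 1.5.0, featureCounts and build mm10. The treatment of multi-mapping reads is not given in the sources used here. All 8 separate count lists were identical to the columns of the matrix. Symbols, types and positions came from a RefSeq table of GRCm38.p6, which found 25275 of 27179 identifiers, and the 1904 without a symbol (0.490% to 1.64% of a library's counts) stayed in the totals and the test.

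Counts were tested with edgeR 4.0.16 in R 4.3.3 (filterByExpr, TMM factors of 0.971 to 1.028, robust quasi-likelihood test, Benjamini-Hochberg adjustment over 16074 genes, threshold 0.05), without covariates. SE is the fold change over the square root of F. Depth sets a floor of 3 counts, or 0.0670 to 0.0758 CPM of the library total, which covers counting error only. The script was tested on simulated data. The members, lists, motifs and tests were chosen with earlier results of these data known. The text names core and catalytic subunits, isoform pairs, members changed at least 2-fold, up to 4 members called in each direction in each complex by smallest p, and 2 in each direction for other lists. One gene is counted with the members but not reported by itself. Genes named outside that rule are said to be so or mark the ends of a range. Transcript stretches of 75 bases and exon overlaps were taken from GENCODE transcripts and annotation of the same assembly, choosing for each gene the transcript nearest the deposited length. Alternatives used other size factors, other filters, DESeq2 1.42.0, limma 3.58.1 voom, a replicate block and leaving out each library. Added after the data were seen were the sum of Ndufs5 and Ndufs5-ps, leaving out identifiers without a symbol, and leaving out the 2 libraries with the most choroid plexus markers.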

Additional observations from a re-analysis of the deposited data

Results flagged for a closer look

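Each value here stood apart from the other 3 libraries of its group by a Dixon gap test, which chance alone meets in about 1 of 20 groups, and 8 of the 104 groups examined met it. In the deleted cortices, replicate 1 had 9.97 CPM of Ndufs5 (the others had 5.14 to 5.67 CPM), 96.6 CPM of Sdhb (the others 106 to 108 CPM) and 6.40 CPM of Atp5g1 (the others 10.8 to 11.5 CPM). Replicate 1 is also the library with the most choroid plexus markers, at 852 CPM, and the part of these in its values was not tested. Among deleted cortices, replicate 2 had 0.840 CPM of Cox7a2 (the others 0.948 to 0.964 CPM) and replicate 3 had 217 CPM of Cox4i1 (the others 209.8 to 210.1 CPM). Of the intact cortices, replicate 3 had 26.3 CPM of Ndufs3 (the others 27.4 to 27.6 CPM) and 33.3 CPM of Uqcr10 (the others 31.2 to 31.4 CPM), and replicate 4 had 60.2 CPM of Atp5d (the others 56.2 to 56.8 CPM).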

How the results depend on the processing

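Counts of members called higher and lower over the whole chain and in complexes I and III stayed within 1.5 times their values in all 19 alternatives. The Ndufs5 row reversed, to -0.29, when its counts were summed with Ndufs5-ps. Upper quartile factors moved the median log2 fold change to -0.0072 for all members, -0.0176 for complex I, -0.0809 for complex II, -0.0234 for complex III, 0.071 for complex IV and -0.0077 for complex V. Library totals moved it to -0.0031, -0.0135, -0.0768, -0.0192, 0.0751 and -0.0038 in the same order. Upper quartile factors moved the difference in summed level to -1.47% for all members, -2.46% for complex I, 1.22% for complex II, 3.73% for complex III, 3.21% for complex IV and -3.98% for complex V, and library totals moved it to -1.19%, -2.18%, 1.504%, 4.03%, 3.50% and -3.71%. A filter at CPM above 1 in 4 libraries moved the median to -0.03 for all members, -0.0266 for complex I, 0.0635 for complex IV and -0.0378 for complex V, and no filter moved that of complex II to -0.0393. Complex II had 1 gene called higher without deleted replicate 1 and with upper quartile factors, library totals, the CPM filter and DESeq2, and 1 called lower with library totals and without the 2 choroid plexus libraries. Leaving those 2 out moved the median to -0.0985 for complex II, -0.0247 for complex III and 0.074 for complex IV. Complex IV had 5 genes called higher with upper quartile factors and library totals, and 1 with no filter. Complex V had 5 called lower with library totals and the CPM filter. Leaving out 1 library at a time gave 0 to 1 complex II genes higher, 1 to 3 complex IV genes higher and medians of -0.0649 to -0.0411 for all members, -0.0783 to -0.047 for complex I, -0.1 to -0.0426 for complex III, -0.0315 to 0.0531 for complex IV and -0.0768 to -0.0388 for complex V. The complex V median was -0.0414 without deleted replicate 1 and -0.0388 without intact replicate 3. The cause was not tested for any of these. The labels number the replicates alike in both genotypes, but same-numbered libraries did not deviate together (correlations of -0.46 to 0.01), so the numbers were not taken as pairs. A replicate block gave 17 members higher and 28 lower, with 1 complex IV gene higher. Library totals and upper quartile factors moved the median of all genes by up to 0.06. Rows under about 1 CPM hold few counts, so that their differences are the least certain.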
